A study of Mus musculus with 7 samples.

Results

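The 10 mesenchymal transition genes Snai1, Snai2, Zeb1, Zeb2, Twist1, Twist2, Prrx1, Vim, Cdh2 and Fn1 were followed through 7 bulk tumor transcriptomes. They were chosen by name, by matching Ensembl identifiers to gene symbols, and they are 10 of the 22629 rows of the deposited count table. The tumors were grown s/c in C57BL/6 mice from the mouse PDA line 1242, which came from a genetically engineered mouse model of pancreatic cancer with recombination under Pdx1-Cre. Tumors were harvested 2 weeks after inoculation, from mice bought at 6 wk of age and housed for 2 wk before use. Tumors 1, 4 and 5 (n = 3) were formed with sgScramble cells, which had received a lentivirus for Cas9 and a scrambled guide and had been selected with puromycin. Tumors 15, 16, 18 and 2 (n = 4) were formed with sgScramble cells that also carried a Dox-inducible vector for icOVA, a chicken ovalbumin that stays in the cytoplasm. The icOVA cells were sorted and cloned from single cells, and their hosts ate Dox food from the day of inoculation. Cells with the vector were also grown in mice without Dox in this study, but the sources used here do not state, for the sgScramble tumors that were sequenced, whether the cells were a clone, carried the vector or were exposed to Dox, so the antigen, the drug and the choice of clone cannot be told apart.

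In an epithelial-mesenchymal transition, carcinoma cells give up E-cadherin junctions and keratin-rich, polarized sheets and take on a motile, matrix-producing state. SNAIL, SLUG, ZEB and TWIST proteins drive this program by binding E-box motifs, and SNAIL and ZEB repress the E-cadherin gene Cdh1 directly. Fibroblasts and some leukocytes express several of these genes as part of their normal identity. In bulk tumor RNA, fewer cells of a type and less RNA per cell cannot be told apart.

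The tumors had 30904855 to 37510591 counts each. The transgene checked the labels, with 4.35, 2.58 and 2.94 CPM (counts scaled to the size of the library) for OVA in sgScramble tumors 1, 4 and 5 and 186, 308, 98.2 and 248 CPM in icOVA tumors 15, 16, 18 and 2. Epithelial genes of the PDA cells were present in every tumor, with mean levels of 1370 CPM for the keratin gene Krt8, 1034 CPM for Cdh1 and 10.8 CPM for Epcam in the sgScramble group. Markers of host cells differed between tumors. The summed level of 11 fibroblast markers, none of them at 0, was 7320, 16016 and 6859 CPM in sgScramble tumors 1, 4 and 5. It was 27155, 5818, 37385 and 9434 CPM in icOVA tumors 15, 16, 18 and 2. The sum was highest in icOVA tumors 18 and 15, then in sgScramble tumor 4. The collagen genes Col1a1, Col1a2 and Col3a1 made most of it, with 11678, 10135 and 13521 CPM in icOVA tumor 18. Of the other markers, Fap, Dpt and Pdpn were higher in icOVA tumor 2 than in sgScramble tumor 4. Dcn, Lum, Pdgfra, Pdgfrb and Thy1 were lower. The summed level of 9 macrophage and monocyte markers ran from 2064 to 2864 CPM in sgScramble tumors and from 3715 to 5029 CPM in icOVA tumors, without overlap. Lyz2 made the largest part of this sum, with group means of 1351 CPM in sgScramble and 2543 CPM in icOVA tumors. Singly, Csf1r, Cd68, Lyz2, Itgam and Mertk did not overlap between the groups, and Adgre1, Mrc1, C1qa and C1qb did. The labels give each tumor as a sample of its own but do not say that each came from a separate mouse, and p values below measure the spread between these tumors.

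None of the 10 members differed between icOVA and sgScramble tumors at an adjusted p below 0.05 in edgeR's quasi-likelihood test. In the whole table, 3.36% of 17489 tested genes were called higher and 2.54% lower in icOVA tumors. At an unadjusted p below 0.05, Zeb2 and Prrx1 were higher and Twist1 and Fn1 were lower, where 13.4% of all tested genes were higher and 13.8% were lower. Zeb2 was the one member whose 4 icOVA values all lay above the 3 sgScramble values, and Twist1 the one whose values all lay below, where 11.3% and 13.3% of tested genes separated in those directions. The other tools differed over Zeb2 alone. DESeq2 called Zeb2 higher and no member lower, with 8.91% and 7.31% of all genes called in those directions, and limma-voom called 0 members, with 2.96% and 2.42% of all genes. The log2 fold changes of the members had 6 positive and 4 negative signs and a median of 0.063, beside -0.0048 for all tested genes. A p that misses the threshold does not show that the groups were alike.

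**Figure D1:**
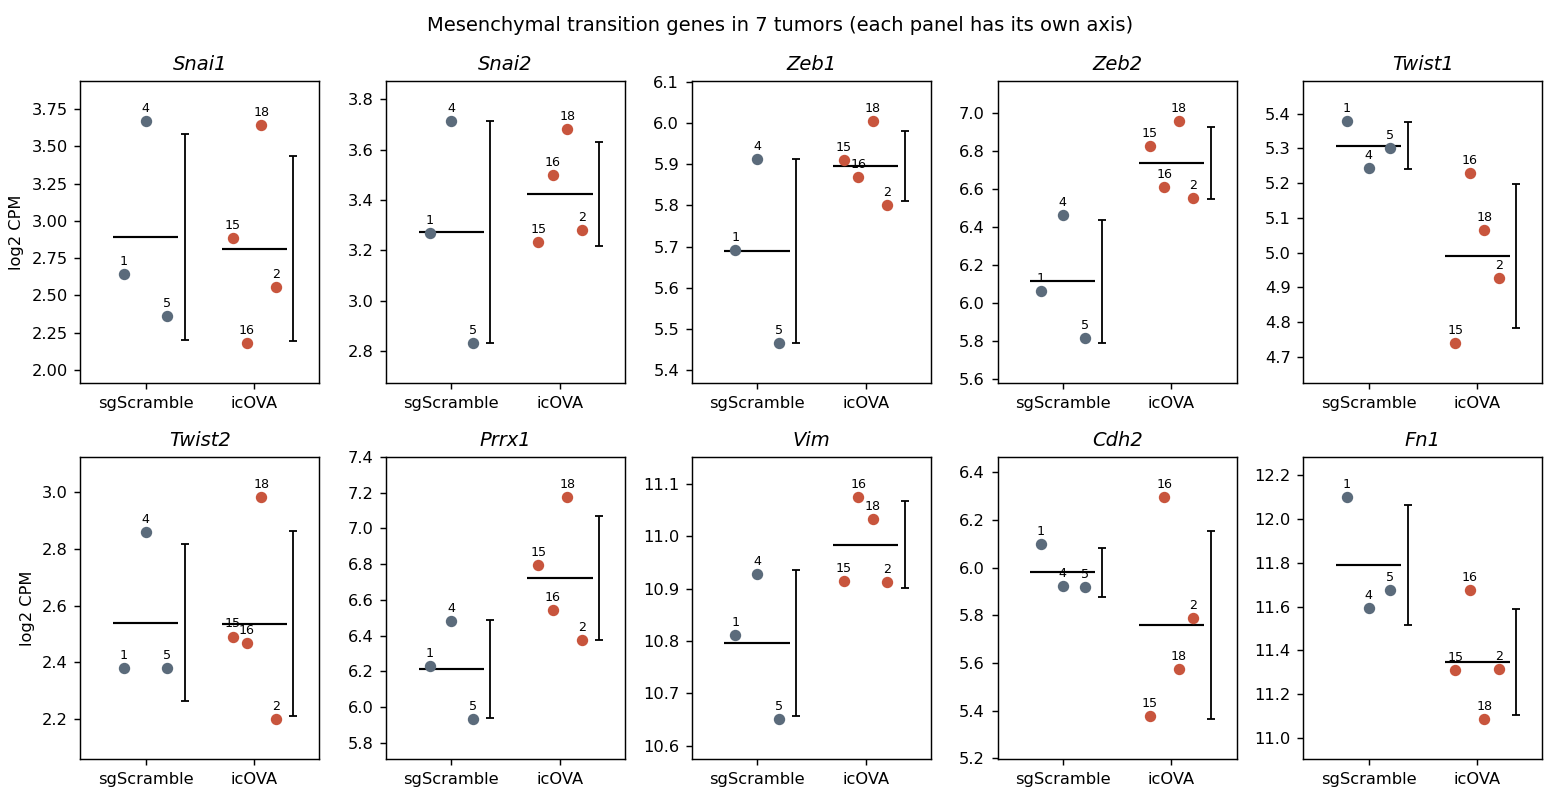
Log2 CPM (vertical axis, a separate scale for each gene) of the 10 members in sgScramble tumors (grey) and icOVA tumors (red), each point 1 tumor with its number; lines are group means and bars the SD (n = 3 and n = 4). The groups are apart for Zeb2 and Twist1 and overlap for the other 8 genes, and tumors 4 and 18 lie highest in the panels of Snai1, Snai2 and Twist2.

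Snai1 and Snai2 showed no group difference larger than their spread. Snai3, a Snail family gene outside the 10 members named after its values were seen, had 0.94 ± 0.26 log2 units (SE, edgeR adjusted p = 0.0730). Its group means were low, at 1.14 CPM in sgScramble and 2.18 CPM in icOVA tumors. Snai1, which encodes SNAIL, had 6.19, 12.7 and 5.08 CPM in sgScramble tumors 1, 4 and 5 and 7.32, 4.47, 12.4 and 5.81 CPM in icOVA tumors 15, 16, 18 and 2. One tumor of each group, sgScramble tumor 4 and icOVA tumor 18, had about the same high level and the other 5 lay together below it. The fitted log2 fold change was -0.088 ± 0.42 (SE, edgeR adjusted p = 0.913), and its sign depended on single tumors, being 0.42 without sgScramble tumor 4 and -0.44 without icOVA tumor 18. With the log2 fibroblast marker sum as a covariate, a fit chosen after the data were seen, it was -0.50 ± 0.21 (SE, edgeR adjusted p = 0.181). Snai2, which encodes SLUG, had 9.59, 13.1 and 7.07 CPM in the sgScramble group and 9.35, 11.3, 12.8 and 9.67 CPM in the icOVA group. Its icOVA values lay inside the range of the sgScramble values, with a log2 fold change of 0.12 ± 0.22 (SE, edgeR adjusted p = 0.757) that became 0.38 without sgScramble tumor 4 and -0.068 without sgScramble tumor 5. Between-tumor spread was widest for Snai1, whose highest and lowest tumors differed 2.83-fold.

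E-boxes recognized by SNAIL and ZEB proteins have the core CACCTG, and promoters are shown for Snai1, as the member that holds this core, for Zeb2 and Twist1, as the members whose groups did not overlap, and for Crb3, the epithelial polarity gene with the most cores. The windows, from RefSeq on GRCm38.p6, hold 250 bases before and 50 bases after the start of the gene. The start is that of RefSeq, and for Zeb2 it differs from the GENCODE position given below. The windows are written 5′ to 3′ on the strand of the gene, and capitals mark CACCTG on either strand, read as CACCTG or CAGGTG. Their positions are chr2:167537945-167538244 on the plus strand for Snai1, chr2:45117393-45117692 on the minus strand for Zeb2, chr12:33957421-33957720 on the plus strand for Twist1 and chr17:57061951-57062250 on the plus strand for Crb3.
Snai1: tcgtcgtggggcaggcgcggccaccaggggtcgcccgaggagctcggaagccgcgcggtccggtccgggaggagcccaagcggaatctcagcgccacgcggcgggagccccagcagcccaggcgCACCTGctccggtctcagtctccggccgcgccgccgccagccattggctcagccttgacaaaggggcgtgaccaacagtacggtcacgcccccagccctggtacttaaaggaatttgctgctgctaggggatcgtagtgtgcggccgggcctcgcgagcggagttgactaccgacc
Zeb2: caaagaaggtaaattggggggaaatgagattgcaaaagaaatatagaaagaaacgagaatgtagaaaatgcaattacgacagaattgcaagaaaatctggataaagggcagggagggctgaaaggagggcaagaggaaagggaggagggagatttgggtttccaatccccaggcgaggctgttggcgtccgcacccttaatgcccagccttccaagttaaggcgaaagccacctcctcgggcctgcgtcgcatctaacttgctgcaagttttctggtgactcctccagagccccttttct
Twist1: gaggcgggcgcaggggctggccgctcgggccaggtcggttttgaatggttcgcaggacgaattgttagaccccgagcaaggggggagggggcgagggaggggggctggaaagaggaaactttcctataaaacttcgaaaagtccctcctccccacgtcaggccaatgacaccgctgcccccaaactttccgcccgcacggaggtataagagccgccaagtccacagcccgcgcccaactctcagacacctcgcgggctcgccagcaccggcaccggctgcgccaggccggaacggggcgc
Crb3: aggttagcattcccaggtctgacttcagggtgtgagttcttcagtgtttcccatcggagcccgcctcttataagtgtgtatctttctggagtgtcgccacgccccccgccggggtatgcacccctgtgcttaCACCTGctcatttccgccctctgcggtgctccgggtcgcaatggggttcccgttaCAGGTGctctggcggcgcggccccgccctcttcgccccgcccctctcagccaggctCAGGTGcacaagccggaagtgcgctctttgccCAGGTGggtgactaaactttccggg
The core began at base -126 in Snai1 and at bases -118, -63, -7 and 26 in Crb3, where base 1 is the first of the gene. Of the 10 members, 6 had an entry, and 1 of these 6 windows held the core, against 20.03% of 27025 promoters of this length. For the wider motif CANNTG, which includes CACCTG and reads the same on both strands, the counts were 1 of 6 windows and 72.1% of promoters. Of 15 epithelial junction and keratin genes, 12 had an entry and 9 of these held CACCTG, among them Crb3, Epcam, Krt8 and Cldn4. These matches describe letters in a window and were not compared with binding.

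The ZEB genes gave the largest positive difference among the members. Zeb2, a repressor of epithelial genes that is also expressed in macrophages and other host cells, had 66.8, 87.9 and 56.2 CPM in sgScramble tumors 1, 4 and 5 and 113, 97.4, 124 and 93.6 CPM in icOVA tumors 15, 16, 18 and 2. Each icOVA tumor exceeded each sgScramble tumor, and the closest pair was icOVA tumor 2 and sgScramble tumor 4. Its log2 fold change was 0.61 ± 0.17 (SE, edgeR adjusted p = 0.0701), or 1.52-fold, between group means of 70.3 ± 16.1 CPM (SD, n = 3) and 107 ± 14.2 CPM (n = 4). The adjusted p was 0.00786 with DESeq2 and 0.0670 with limma-voom. Without sgScramble tumor 4 the log2 fold change was 0.81 and passed the threshold (adjusted p = 0.0284 from edgeR), and without the other tumors, each in turn, the adjusted p lay between 0.0644 and 0.235. With the fibroblast covariate the log2 fold change was 0.48 (adjusted p = 0.0391 from edgeR). The macrophage and monocyte sum was 2064, 2864 and 2565 CPM in sgScramble tumors 1, 4 and 5 and 4396, 3743, 5029 and 3715 CPM in icOVA tumors 15, 16, 18 and 2. The tumors had the same order by Zeb2 and by this sum except that sgScramble tumors 1 and 5 changed places. Both separated the groups, which fixes part of that order. For deviations from the group means, the Pearson r of Zeb2 was 0.67 with this sum and 0.81 with the fibroblast sum. All 9 macrophage and monocyte markers had positive log2 fold changes and 4 passed the test. Their part in the Zeb2 difference was not tested.

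Zeb1, the paralog of Zeb2, had 51.6, 60.1 and 44.1 CPM in the sgScramble group and 60.0, 58.4, 64.1 and 55.7 CPM in the icOVA group. The icOVA tumors stayed within a narrow band that sgScramble tumor 4 reached, and the log2 fold change was 0.20 ± 0.11 (SE, edgeR adjusted p = 0.283). Single sgScramble tumors moved it, to 0.096 without tumor 5 and to 0.32 without tumor 4 (edgeR adjusted p = 0.0870). Within each tumor, the log2 ratio of Zeb2 to Zeb1 counts was 0.37, 0.55 and 0.35 in the sgScramble group and 0.92, 0.74, 0.95 and 0.75 in the icOVA group. The balance of the 2 paralogs was shifted to Zeb2 in 4 of 4 icOVA tumors relative to every sgScramble tumor, by 0.42 log2 units (p = 0.0571 in an exact two-sided permutation test, as small as 3 against 4 tumors allow, and 0.343 after Benjamini-Hochberg adjustment over 6 ratios). Leaving out any of the tumors in turn kept this difference between 0.38 and 0.48.

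Among the 7 transcription factors, Twist1 was the one with all icOVA values below the sgScramble values. Twist1, a basic helix-loop-helix factor of mesoderm and of metastatic carcinoma, had 41.5, 37.8 and 39.4 CPM in sgScramble tumors 1, 4 and 5 and 26.7, 37.5, 33.5 and 30.3 CPM in icOVA tumors 15, 16, 18 and 2. The gap was small, since icOVA tumor 16 and sgScramble tumor 4 nearly touched. The log2 fold change was -0.31 ± 0.12 (SE, edgeR adjusted p = 0.143), and adjusted p values ran from 0.0589 to 0.381 as tumors were left out. Twist2, its paralog, had 5.15, 7.20 and 5.15 CPM in the sgScramble group and 5.56, 5.47, 7.85 and 4.54 CPM in the icOVA group. Its groups covered nearly the same range, with a log2 fold change of 0.0061 ± 0.22 (SE, edgeR adjusted p = 0.988) that lay between -0.17 and 0.19 as tumors were left out. Twist2 values are uncertain, since 45.2% of the 76-base stretches of its transcripts also occur in the antisense gene Gm29100, which had 19 to 33 counts, and whether counting used strand is not given in the sources used here. The ratio of Twist2 to Twist1 differed by 0.31 log2 units (p = 0.286 in an exact two-sided permutation test, 0.514 after adjustment).

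Prrx1, a homeobox gene of limb mesenchyme and fibroblasts that also acts in carcinoma transition, had 75.0, 89.4 and 61.1 CPM in sgScramble tumors 1, 4 and 5 and 111, 93.2, 145 and 83.1 CPM in icOVA tumors 15, 16, 18 and 2. The highest icOVA values were those of tumors 18 and 15, which had the highest fibroblast marker sums, and icOVA tumor 2 lay below sgScramble tumor 4. The log2 fold change was 0.52 ± 0.21 (SE, edgeR adjusted p = 0.154). It was 0.33 with the fibroblast covariate (adjusted p = 0.138 from edgeR), and 0.35 without icOVA tumor 18.

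The effector genes differed in sign, and none passed the test. Vim, the intermediate filament of mesenchymal cells and leukocytes, had 1796, 1948 and 1608 CPM in sgScramble tumors 1, 4 and 5 and 1930, 2158, 2096 and 1928 CPM in icOVA tumors 15, 16, 18 and 2. It was the steadiest member, with a 1.34-fold range over the 7 tumors and a log2 fold change of 0.18 ± 0.10 (SE, edgeR adjusted p = 0.277), which was 0.12 without sgScramble tumor 5. Cdh2, which encodes N-cadherin, had 68.4, 60.6 and 60.5 CPM in the sgScramble group and 41.6, 78.6, 47.7 and 55.2 CPM in the icOVA group. The icOVA tumors were spread to both sides of the sgScramble tumors, tumor 16 above and the other 3 below. The log2 fold change was -0.18 ± 0.20 (SE, edgeR adjusted p = 0.596), and it was -0.39 without icOVA tumor 16 and -0.054 without icOVA tumor 15. Fn1, which encodes the matrix protein fibronectin, had 4398, 3089 and 3268 CPM in the sgScramble group and 2537, 3268, 2173 and 2545 CPM in the icOVA group. Only icOVA tumor 16 reached the sgScramble range, and the log2 fold change was -0.45 ± 0.18 (SE, edgeR adjusted p = 0.157). Without sgScramble tumor 1, the highest, it was -0.27.

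The members lie on several chromosomes in the GENCODE M21 annotation of GRCm38. Chromosome 1 holds Twist2 from 91801461 to 91848028 on the plus strand, Prrx1 from 163245119 to 163313710 on the minus strand and Fn1 from 71585520 to 71653200 on the minus strand. Chromosome 2 holds Snai1 from 167538195 to 167542814 on the plus strand, Zeb2 from 44983632 to 45117395 on the minus strand and Vim from 13573927 to 13582826 on the plus strand. Chromosome 12 holds Twist1 from 33957671 to 33959829 on the plus strand. Chromosome 16 holds Snai2 from 14705852 to 14709385 on the plus strand. Chromosome 18 holds Zeb1 from 5591860 to 5775467 on the plus strand and Cdh2 from 16588877 to 16809246 on the minus strand. A window of 1 read length, 76 bases, was shared with another gene for 1.15% of the Zeb1, 1.47% of the Zeb2 and 1.48% of the Fn1 transcript stretches, and for none of those of Snai1, Snai2, Twist1, Prrx1, Vim and Cdh2. The genes that share stretches with Zeb1 and Zeb2 are antisense to them, Gm10125 with 11 to 23 counts and Zeb2os with 115 to 211 counts.

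Levels were compared between members only per length, as RPKM, the CPM divided by the kilobases of merged exons. Vim, with a mean level of 406 RPKM, and Fn1, with 260 RPKM, stood above 99.5% and 99.2% of tested genes, and their ranges over the 7 tumors overlapped. Fn1 was separated from Twist1, at 21.6 RPKM, and Twist1 from Prrx1, at 8.49 RPKM. The next members followed closely, Cdh2 at 7.31, Zeb1 at 5.48, Snai2 at 5.14, Snai1 at 4.76 and Zeb2 at 4.58 RPKM, and each of them overlapped with its neighbour in this order from Prrx1 down to Zeb2. Twist2 was lowest, at 1.84 RPKM, and in every tumor lay below Zeb2. The order depends in part on the exons counted, and with the length of the longest transcript Zeb2 moved from rank 9 to rank 6.

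The members were also compared with each other over the 7 tumors. The largest Pearson r of log2 CPM between members was 0.94, for Zeb2 with Prrx1 and for Zeb1 with Zeb2, followed by 0.91 for Zeb1 with Prrx1 and 0.90 for Zeb1 with Vim. Snai1 and Twist2 had an r of 0.87, and Twist1 and Cdh2 of 0.80. The lowest r was -0.77, for Zeb2 with Fn1. These describe 7 libraries with a group difference among them and carry no test. Of 14017 genes with a mean count of at least 50, the gene most like Snai1 was Prr14 (r = 0.98), the gene most like Snai2 was Mvp (r = 0.99), and the gene most like Zeb1 was Ska3 (r = 0.99). Zeb2 was most like Wdhd1. The genes at an r of 0.9 or more ran from 33, for Snai2, to 936, for Zeb2. For each member the best match was thus the highest of 14017 values over 7 libraries, picked from many near-equal ones. For Twist1, Twist2 and Prrx1 the closest genes were Hsdl1 (r = 0.99), Gpc1 (r = 0.98) and 5031439G07Rik (r = 0.99). For Vim, Cdh2 and Fn1 they were Akap2 (r = 0.99), Net1 (r = 0.98) and Trrap (r = 0.99).

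Members were set beside the fibroblast marker sum, which was highest in icOVA tumors 18 and 15 and in sgScramble tumor 4. Prrx1 had an r of 0.83 (rho 0.64) with the sum, an exact permutation p of 0.0139 and an adjusted p of 0.0952 over 30 relations. The r of Prrx1 was 0.86 for deviations from the group means and 0.68 to 0.96 with any 1 tumor left out. Without icOVA tumors 15 and 18, the farthest from the median of the sum, it was 0.31, so that the relation depended on those tumors together. For Cdh2 the r was -0.85 (rho -0.79, exact permutation p = 0.0149, adjusted p = 0.0952), and -0.58 without these tumors. Snai1 had an r of 0.81 (rho 0.86, exact permutation p = 0.0331, adjusted p = 0.158), which was 0.96 without these tumors and 0.90 for deviations from the group means. The other members had r between -0.75, for Fn1, and 0.73, for Zeb2. None of the 30 relations with the fibroblast, macrophage and epithelial sums had an adjusted p below 0.05 in the exact permutation test. The smallest adjusted p of the 30, 0.0774, was that of Zeb2 and of Fn1 with the macrophage sum. This p came from the r over all 7 tumors. Since the macrophage sums of the groups did not overlap, that r and its p include the group difference, and the r is not given. For deviations from the group means, r with this sum was -0.87 for Fn1, 0.83 for Twist2, 0.80 for Snai1, 0.71 for Prrx1 and 0.67 for Zeb2, as a description without a test. The part of fibroblast RNA in the level of any member was not tested beyond the covariate fit.

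**Figure D2:**
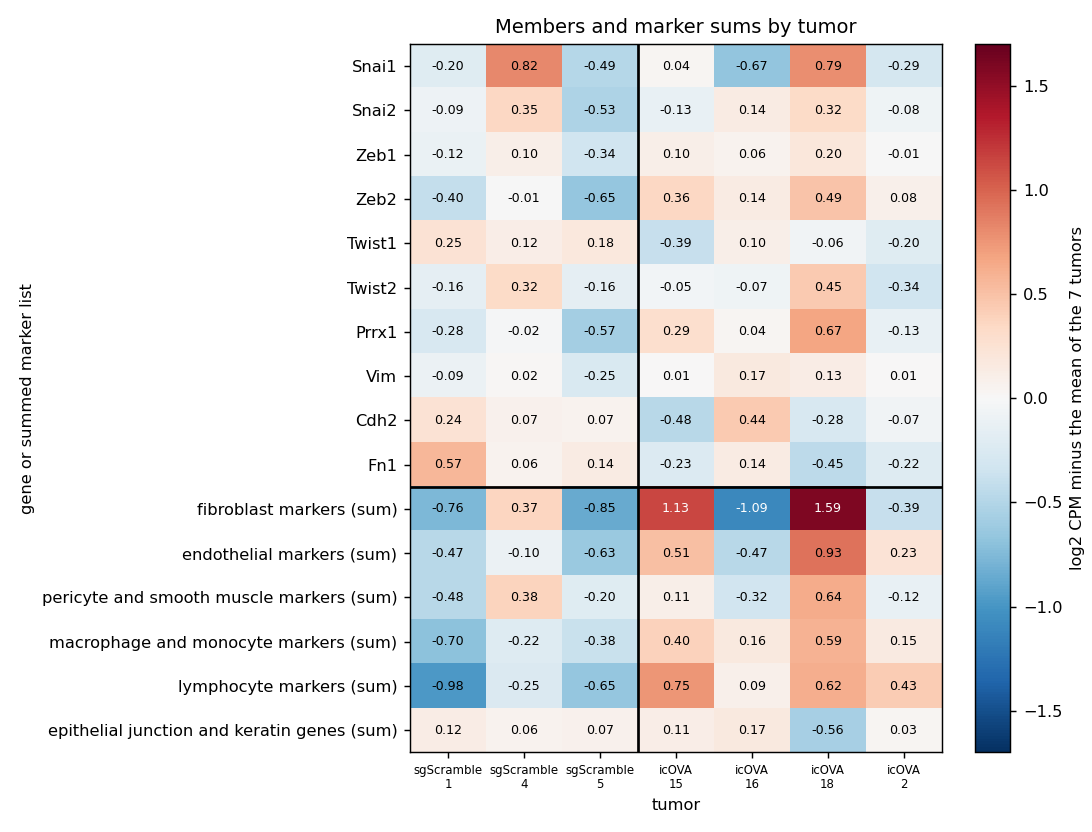
Log2 CPM of the 10 members and of 6 summed marker lists (rows) in each tumor (columns), as the difference from the mean of the 7 tumors, with sgScramble tumors left of the vertical line and members above the horizontal line. Snai1 is high in tumors 4 and 18, Cdh2 is high in icOVA tumor 16, and the fibroblast sum is highest in icOVA tumors 18 and 15.

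Other genes of the transition were read as lists. Of 11 tested transcription factors tied to the transition, the ETS factor gene Ets1 was higher in icOVA tumors (0.42 ± 0.082 log2 units, SE, edgeR adjusted p = 0.0347) and 0 were lower. Among 17 mesenchymal and matrix effectors, edgeR called 0, with 3 higher and 0 lower at an unadjusted p below 0.05, DESeq2 called 1 and limma-voom 0. Tgfbi, a matrix protein induced by TGF-beta, came nearest (0.58 ± 0.17 SE, edgeR adjusted p = 0.0899), then Itga5, a chain of the fibronectin receptor (0.23 ± 0.095 SE, edgeR adjusted p = 0.168). Of 15 ligands, receptors and mediators that induce the transition, the ligand gene Tgfb3 was lower, with means of 46.1 ± 5.68 CPM over 4 icOVA and 89.2 ± 10.9 CPM over 3 sgScramble tumors (± SD) and a fitted difference of -0.95 ± 0.12 log2 units (SE, edgeR adjusted p = 0.0230), and 0 were higher. DESeq2 called 4 of the 11 factors, 2 in each direction, and 3 of the 15 inducing genes, all lower. The medians of these 3 lists were 0.23, 0.23 and -0.020 log2 units.

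Epithelial genes, which the transition lowers, gave 0 calls among 13 tested junction and keratin genes and 0 among 9 transcription and splicing regulators with edgeR. Their median log2 fold changes were 0.044 and -0.17. At an unadjusted p below 0.05, 1 junction gene was lower and 1 regulator was higher, and DESeq2 called 1 junction gene, Jup, and limma-voom 0. The junction protein gene Jup averaged 108 ± 26.7 CPM over 4 icOVA and 180 ± 21.7 CPM over 3 sgScramble tumors (± SD), with a log2 fold change of -0.74 ± 0.20 (SE, edgeR adjusted p = 0.0691). Cdh1, the target of the Snail and ZEB repressors, had 710 ± 247 CPM and 1034 ± 103 CPM in the same groups (-0.54 ± 0.28 log2 units, SE, edgeR adjusted p = 0.254), and its difference was -0.32 without icOVA tumor 18. The keratin gene Krt8 differed by 0.10 ± 0.15 (SE, edgeR adjusted p = 0.686) and Epcam by 0.26 ± 0.52 (SE, edgeR adjusted p = 0.776). Among the regulators, 4 signs were positive and 5 negative. The lowest p values were those of Grhl1, at 0.77 ± 0.30 (SE, edgeR adjusted p = 0.150), and Klf4, at 0.41 ± 0.20 (SE, edgeR adjusted p = 0.223). Ehf (-0.71 ± 0.36 SE, edgeR adjusted p = 0.243) and Esrp2 (-0.44 ± 0.23 SE, edgeR adjusted p = 0.251), named after their values were seen, had the opposite sign. The summed level of the junction and keratin genes was 4828 to 5046 CPM in sgScramble tumors. In icOVA tumors it was 4736 to 5208 CPM, except in tumor 18 with 3147 CPM, the tumor with the highest fibroblast sum.

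Ratios of a mesenchymal to an epithelial gene inside each tumor, which do not move with library scaling, did not separate the groups. For the cadherins, sgScramble tumors 1, 4 and 5 had Cdh2:Cdh1 ratios of -4.01, -3.92 and -4.17 log2 units, while icOVA tumors 15, 16, 18 and 2 had -4.18, -3.59, -2.93 and -3.81. The ratio was above all sgScramble tumors in 3 of 4 icOVA tumors and below them in the fourth, a mean difference of 0.40 (p = 0.286 in an exact two-sided permutation test, 0.514 after adjustment). For Vim:Krt8 the difference was 0.10 (p = 0.971 in an exact two-sided permutation test, 0.971 after adjustment) and rested on icOVA tumor 18, without which it was -0.046. For Fn1:Epcam the difference was -0.67 (p = 0.343 in an exact two-sided permutation test, 0.514 after adjustment), and for Snai2:Snai1 it was 0.23 (p = 0.686, adjusted p = 0.823).

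**Figure D3:**
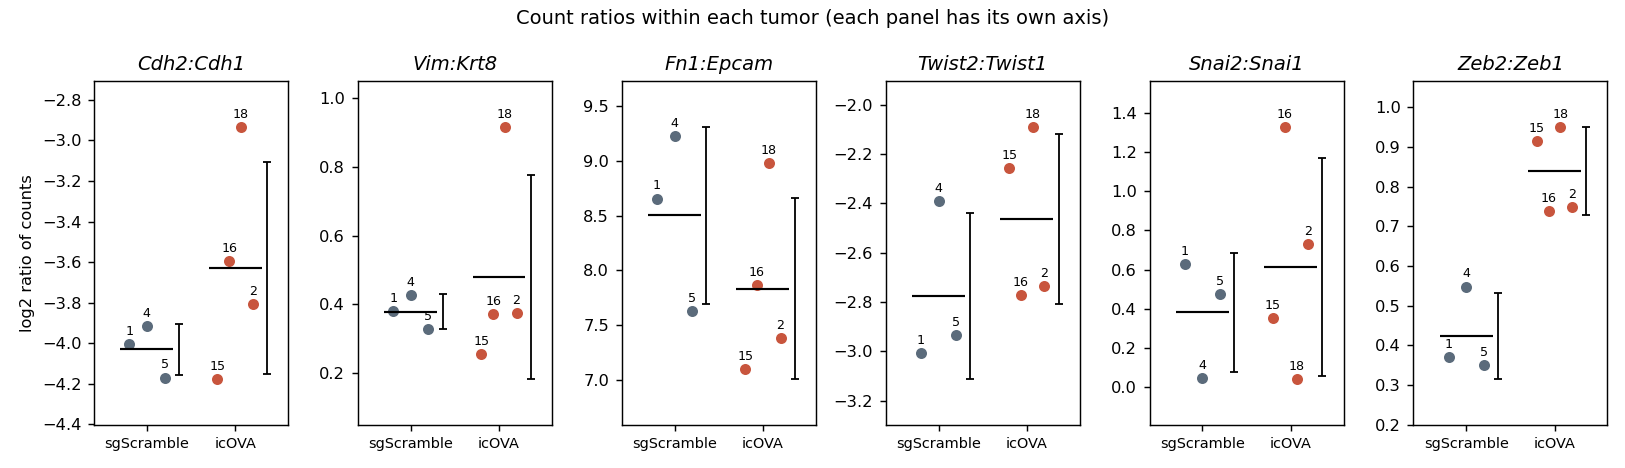
Log2 ratio of counts within each tumor (vertical axis, a separate scale for each pair) for 6 gene pairs, with sgScramble tumors in grey and icOVA tumors in red; lines are means and bars the SD (n = 3 and n = 4). The groups are apart for Zeb2:Zeb1 and overlap for the other 5 pairs, and icOVA tumor 18 is highest for Cdh2:Cdh1 and Vim:Krt8.

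Host cells of the tumor, fibroblasts, vessels and leukocytes, express several of the members, and their markers were read from the same fit. All 11 fibroblast markers had positive log2 fold changes with a median of 0.93, but 0 passed the test in edgeR and 3 had an unadjusted p below 0.05, while DESeq2 called 2 and limma-voom 0. Pdpn was nearest (0.78 ± 0.22 SE, edgeR adjusted p = 0.0743), and Dpt had the largest value (3.21 ± 1.05 SE, edgeR adjusted p = 0.105). Col1a1 had 0.92 ± 0.67 SE (edgeR adjusted p = 0.406), which was 0.38 without icOVA tumor 18 and 1.53 without sgScramble tumor 4. Pdgfra had 0.48 ± 0.39 SE (edgeR adjusted p = 0.463), which was 0.22 without sgScramble tumor 5 and 0.97 without sgScramble tumor 4. Fap had 1.14 ± 0.49 SE (edgeR adjusted p = 0.179), which was 0.74 without icOVA tumor 18. Of 8 pericyte and smooth muscle markers, the actin-binding protein genes Tagln (-0.98 ± 0.21 SE, edgeR adjusted p = 0.0381) and Cnn1 (-1.47 ± 0.32 SE, edgeR adjusted p = 0.0430) were lower, although Cnn1 missed the threshold with limma-voom (adjusted p = 0.0506). The list as a whole had 4 positive and 4 negative signs and a median of 0.25. The pericyte genes Rgs5 (1.17 ± 0.41 SE, edgeR adjusted p = 0.122) and Mcam (0.65 ± 0.27 SE, edgeR adjusted p = 0.167), named after their values were seen, had the opposite sign, and DESeq2 called Rgs5 higher. Endothelial markers had a median of 0.85 over 7 genes and 0 calls, with 6 at an unadjusted p below 0.05, 4 called by DESeq2 and 0 by limma-voom, among them Pecam1 (0.83) and Emcn (0.72). Of 9 macrophage and monocyte markers 4 were higher, among them Lyz2 (0.91), Mertk (0.90) and Itgam (0.83), and Csf1r did not pass (0.62 ± 0.15 SE, edgeR adjusted p = 0.0524). Adgre1, Mrc1, C1qa and C1qb, named after their values were seen, had edgeR adjusted p values from 0.119 to 0.367, although DESeq2 called Mrc1 and C1qb. Of 7 lymphocyte markers, the T cell genes Cd3d (1.26), Cd3e (1.27) and Cd4 (1.44) were higher. Cd8a, named after its values were seen, did not pass (0.98 ± 0.23 SE, edgeR adjusted p = 0.0505), and DESeq2 called it higher. The leukocyte gene Ptprc averaged 298 ± 49.95 CPM over 4 icOVA and 141 ± 30.7 CPM over 3 sgScramble tumors (± SD), a difference of 1.08 ± 0.18 log2 units (SE, edgeR adjusted p = 0.0271). These calls depended on the tumors included, since edgeR called 0 genes in the whole table when sgScramble tumor 1 or 5 or icOVA tumor 15 was left out, and 8 without icOVA tumor 2. Without sgScramble tumor 4, Ets1, Tagln and Cnn1 had adjusted p values of 0.0507, 0.0667 and 0.0745 from edgeR. Cnn1 passed the threshold in no fit with a tumor left out, with edgeR adjusted p values from 0.0535 to 0.172. Mertk also missed it without icOVA tumor 18 (edgeR adjusted p = 0.0509).

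**Figure D4:**
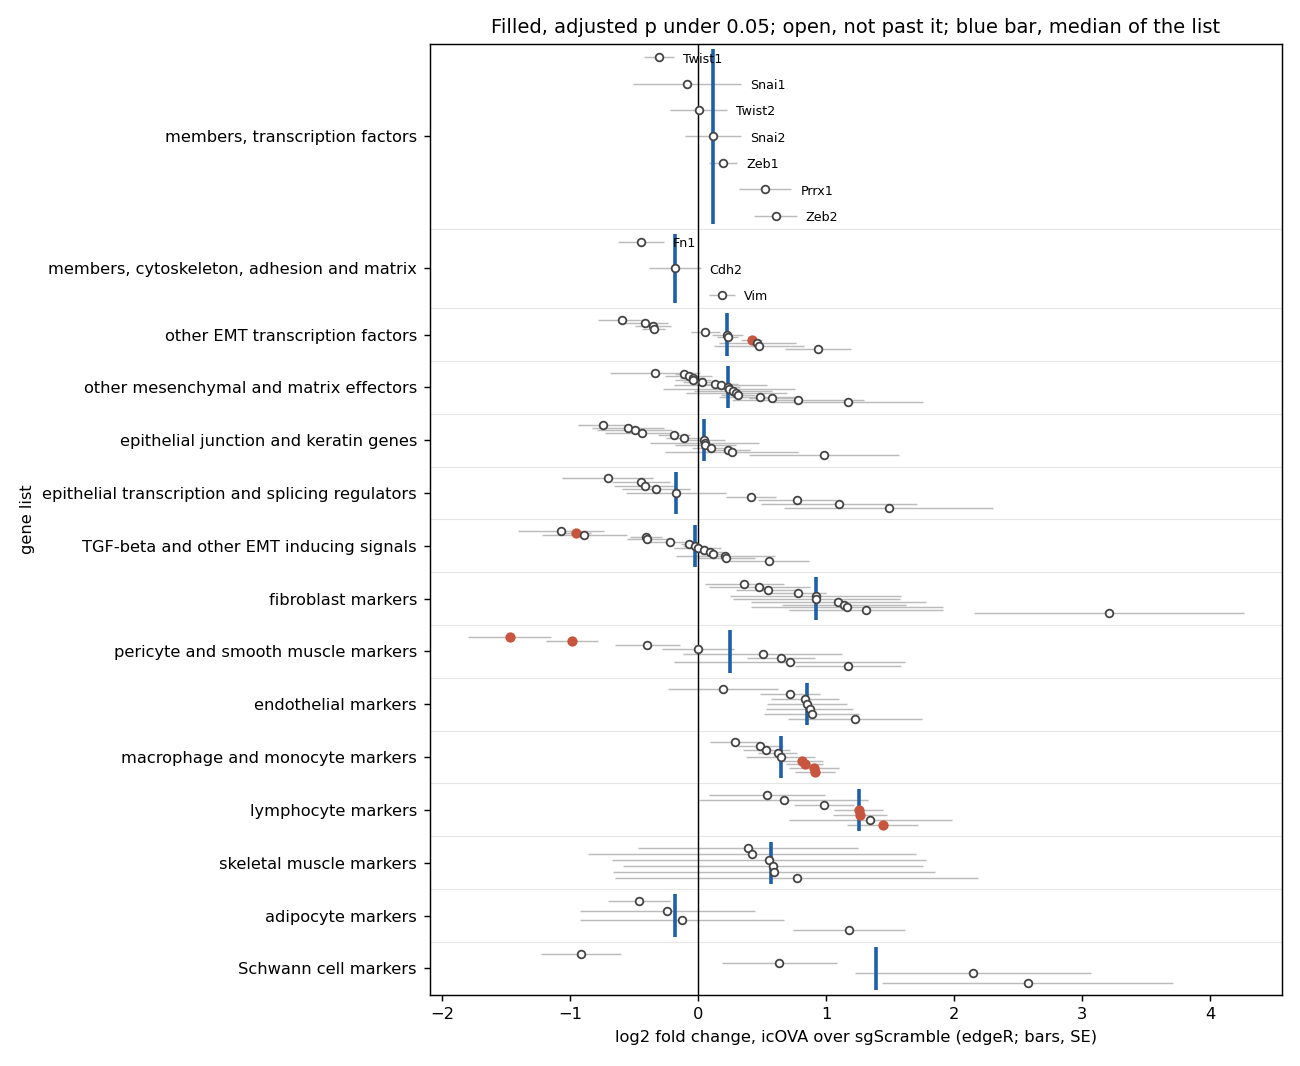
Log2 fold change of icOVA over sgScramble tumors (horizontal axis, bars are SE derived from edgeR's test) for the tested genes of each list (rows). Points are filled where the adjusted p was below 0.05, with the median of each list as a blue bar. The 10 members lie between -0.45 and 0.61 and none is filled, and the filled points are in the lists of other transition factors, inducing signals, smooth muscle, macrophage and lymphocyte genes.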

How the data were processed

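Libraries were prepared with Illumina TruSeq reagents and 12 cycles of amplification and sequenced as single reads of 76 bases. The labels give polyA RNA and the study's methods a total RNA kit. The authors deposited counts, whole numbers of reads per gene without normalization, for 7 tumors in 22629 rows, of which 1 is OVA and 22628 are Ensembl identifiers. Of these identifiers, 22414 had a symbol. The submitters' processing notes name mm10, and the aligner, the counter and the annotation are not given in the sources used here.

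The groups were compared with edgeR 4.0.16 under R 4.3.3 (filterByExpr with a minimum count of 10 and a minimum total of 15, which kept 17489 genes and all 10 members, TMM scaling, quasi-likelihood test, no covariates, Benjamini-Hochberg adjustment over all tested genes, threshold 0.05). Log2 CPM had a prior count of 2. Ratios had 0.5 counts added and were tested with scipy 1.17.1. The script was tested on simulated data. DESeq2 1.42.0, limma-voom (limma 3.58.1), other scalings and filters, and leaving out each tumor were alternatives. No libraries agreed within sampling noise. Members and gene lists were chosen with earlier results of these data known. Named genes are OVA, the members, up to 3 called genes in each direction per list (or the 2 with the lowest p where none was called), Cdh1, Krt8, Epcam, Col1a1, Pdgfra, Fap, Csf1r and Ptprc, and the gene most like each member. Foxc2, Cldn7, Ovol2, Ms4a1 and Lep were too low to test, and counts of Six2, Gsc and Cldn3 were not analysed here. Crb3 and Cldn4 were named after their motif counts were seen, and further genes of the marker lists after their values were seen.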

Additional observations from a re-analysis of the deposited data

Results flagged for a closer look

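In 63 group values of 4 icOVA tumors that were examined, 3 had a tumor whose gap to the nearest other tumor, divided by the range, was above Dixon's 95% critical value, where chance at 1 in 20 gives 3.15. The skeletal muscle gene Myh4 was at -3.47 log2 CPM in icOVA tumor 2 and at 3.95 to 4.75 in the other icOVA tumors. The adipocyte gene Cidec was at 2.68 log2 CPM in icOVA tumor 18 and at 3.64 to 3.69 in the others. The log2 summed CPM of the epithelial transcription and splicing regulators was 7.44 in icOVA tumor 18 and 8.51 to 8.65 in the others. No member met this criterion.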

How the results depend on the processing

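DESeq2 called 1558 genes higher and 1278 lower in the whole table, and edgeR with the fibroblast covariate, chosen after seeing the data, called 928 and 706. Leaving out 1 tumor gave 0 to 1014 higher and 0 to 716 lower genes. The count of called members was 0 in the reported fit. It was 1 (Zeb2) with DESeq2, with the covariate and without sgScramble tumor 4. The count thus ran from 0 to 1 as tumors were left out, and 0 members were called lower under all these settings. Each fit that called Zeb2 also called more genes in the whole table than the reported fit. Of 17489 tested genes, the reported fit called 1032, DESeq2 2836 and the covariate fit 1634. Without sgScramble tumor 4, 1543 of 17880 tested genes were called. The fit without icOVA tumor 16 called 1730 of 17247 genes but no member. Ratio differences ran from 0.17 to 0.59 for Cdh2:Cdh1, -0.046 to 0.18 for Vim:Krt8, -1.11 to -0.31 for Fn1:Epcam, 0.19 to 0.51 for Twist2:Twist1, -0.0081 to 0.42 for Snai2:Snai1 and 0.38 to 0.48 for Zeb2:Zeb1 as tumors were left out. Of 70 member fold changes with a tumor left out, 62 kept sign and side of the threshold, as did 75 of 80 with all tumors kept. No member was called in the reported fit, so keeping side meant staying uncalled. Where a fit called 0 genes in the whole table, a member could not change side, and only its sign was open.

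Signs turned for the members Snai1, Snai2 and Twist2, whose fitted values were small, and for Epcam, Col1a1 and Tnnt3. Snai1 was 0.42 without sgScramble tumor 4, 0.10 without icOVA tumor 16 and 0.025 without icOVA tumor 2, down to -0.44 without icOVA tumor 18 and -0.50 with the covariate. Snai2 was -0.068 without sgScramble tumor 5. Twist2 was -0.00085 with limma-voom, -0.0075 with total counts, -0.16 with the covariate, -0.07 without sgScramble tumor 1 or 5 and -0.17 without icOVA tumor 18. Epcam was -0.069 without sgScramble tumor 4 and 0.70 without sgScramble tumor 5. Col1a1, at 0.92 in the reported fit, was -0.029 with the covariate, a sum that includes Col1a1 itself. Tnnt3, at 0.59 in the reported fit, ran from -0.30 without icOVA tumor 16 to 1.25 without sgScramble tumor 4. The cause was not tested. Every scaling moved the median of all genes by less than 0.1 log2 units. No paired analysis was possible because no tumor number occurs in both groups. With 3 against 4 tumors the ratios could not reach 0.05, and in the fits that called 0 genes, those lacking sgScramble tumors 1 and 5 and icOVA tumor 15 in turn, 3087, 2936 and 3415 genes still had an unadjusted p below 0.05, against 4763 with all tumors.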

Other observations

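Markers of tissue around s/c tumors gave no calls in edgeR. The 6 skeletal muscle markers summed to 62.0, 73.1 and 2.69 CPM in sgScramble tumors 1, 4 and 5 and to 56.5, 139, 70.2 and 2.11 CPM in icOVA tumors 15, 16, 18 and 2, so that 1 tumor of each group had almost none. Myh4 and Tnnt3, genes of fast muscle fibers, had log2 fold changes of 0.77 (SE 1.41) and 0.59 (SE 1.17). The 5 adipocyte markers, with Lep, which was too low to test, summed to 33.9 to 37.8 CPM and 28.6 to 77.1 CPM in the groups, with Fabp4 at 1.18 (SE 0.43) and Cidec at -0.46 (SE 0.24). The 4 Schwann cell markers summed to 6.52 to 12.3 CPM and 6.02 to 50.5 CPM, highest in icOVA tumor 18, with S100b at -0.92 (SE 0.31) and Sox10 at 2.15 (SE 0.92). The unadjusted p was below 0.05 for 0 muscle, 1 adipocyte and 2 Schwann cell genes. DESeq2 called 1 of these genes, Fabp4, and limma-voom 0.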
